A study of Mus musculus with 12 samples.

Results

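Khdc1a, Abca4, Timp3, Aif1l, Cav2, Iqcn and Nav3 are 7 mouse genes picked from the 55335 entries of each count table because they were among the largest differences in RNA between organoids given RANKL with CSRM617 and organoids given RANKL alone. The first 5 were chosen as falls and Iqcn and Nav3 as rises. The values of RANKL+CSRM617 against RANKL II that chose them are therefore given as a description, with no test. The comparison of RANKL with ENR control used other libraries, and its difference was not the one that chose them. It is not fully independent of the choice. RANKL II carries the same treatment labels as RANKL, and the genes were chosen with earlier results of these data known.

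RNA was sequenced from mouse small intestinal organoids, which are epithelial cultures grown in basement membrane extract, in 12 libraries of 4 groups of 3. All organoids came from 1 female mouse (line26 wild type, Lgr5GFPDTR/+, a GFP and diphtheria toxin receptor knock-in at the stem cell gene Lgr5). RANKL organoids had 3 days of 3 µM CHIR99021, a GSK3 inhibitor, with 1.5 mM valproic acid, a histone deacetylase inhibitor, then 1 day of ENR medium (EGF, Noggin, R-spondin) and 6 days of 100 ng/mL RANKL. ENR control organoids are labelled as 6 days of ENR medium, in the same table as RANKL. Their sample names begin with CVENR, and no label says whether CV stands for the CHIR99021 and valproic acid step. RANKL+CSRM617 organoids received the RANKL scheme with 40 µM CSRM617, and RANKL II is the RANKL group in the table with them. Per the labels, replicates were separate differentiation experiments and not separate animals, so p-values measure the spread between experiments on 1 line.

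RANKL is a cytokine that binds the receptor RANK, activates NF-kB and drives the differentiation of M cells, which sample antigens in the epithelium over lymphoid tissue. CSRM617 is known as a small-molecule inhibitor of ONECUT2, a homeodomain transcription factor. The 7 genes belong to unrelated families. Timp3 encodes a matrix-bound inhibitor of metalloproteinases, Aif1l a calcium-binding actin-bundling protein, Abca4 a lipid-moving ABC transporter known from the retina, and Cav2 a caveolin of plasma membrane pits. Khdc1a encodes a KH-domain protein known from oocytes and early embryos, Iqcn an IQ-motif protein known from sperm development, and Nav3 a navigator protein of microtubule plus ends.

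Intestinal epithelial markers such as Epcam, Cdh1 and Vil1 were present in every group, with none of the 10 at 0, and their summed level was 5226 to 5452 CPM in RANKL libraries and 5170 to 5433 CPM in ENR control libraries. CPM here is the count scaled to library size with TMM factors. The summed level of the same 10 was 7452 to 7798 CPM in RANKL+CSRM617 libraries and 6647 to 6661 CPM in RANKL II libraries. Col1a2, Col3a1, Dcn, Lum, Cdh5 and Kdr, of the 13 stromal and endothelial markers, were at 0 in all libraries. The 7 other stromal and endothelial markers brought the sum of that list to 11.8 to 15.1 CPM in RANKL and 6.40 to 7.87 CPM in ENR control, with 1 of 2 tested called higher (Pdgfrb) and 1 lower (Pdgfra), and to 14.0 to 15.8 CPM in RANKL+CSRM617 and 11.02 to 12.9 CPM in RANKL II. Library totals were 6351155 to 7719157 counts in RANKL, 5795541 to 7577492 in ENR control, 10225102 to 14041947 in RANKL+CSRM617 and 8669153 to 11241811 in RANKL II. The 2 loci that collect ribosomal RNA reads took 9.71% to 10.7% of counts in RANKL, 21.9% to 35.5% in ENR control, 15.3% to 15.8% in RANKL+CSRM617 and 6.44% to 6.71% in RANKL II.

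RefSeq promoter windows (GRCm38.p6, 250 bases before to 50 after the start site) were found for 5 of the 7 genes, namely Abca4, Timp3, Aif1l, Cav2 and Iqcn. The 250 bases before the start are shown for Abca4, Timp3 and Aif1l because the levels of these genes followed each other most closely over the 12 libraries. All lie on the plus strand, at chr3:122044210-122044459, chr10:86300162-86300411 and chr2:31950053-31950302 in that order. Capitals mark the TATA box letters TATAAA in Abca4 and the GC box letters GGGCGG, or their reverse complement CCGCCC, in Timp3 and Aif1l.
Abca4: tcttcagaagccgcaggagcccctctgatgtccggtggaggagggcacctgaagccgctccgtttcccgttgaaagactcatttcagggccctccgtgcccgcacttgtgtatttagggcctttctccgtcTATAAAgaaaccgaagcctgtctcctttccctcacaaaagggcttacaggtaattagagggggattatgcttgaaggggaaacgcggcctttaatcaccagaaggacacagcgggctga
Timp3: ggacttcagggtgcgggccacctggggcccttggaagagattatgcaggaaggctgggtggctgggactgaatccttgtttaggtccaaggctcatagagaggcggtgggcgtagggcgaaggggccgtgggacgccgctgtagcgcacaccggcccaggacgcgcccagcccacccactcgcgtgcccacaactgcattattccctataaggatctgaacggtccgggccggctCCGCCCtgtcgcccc
Aif1l: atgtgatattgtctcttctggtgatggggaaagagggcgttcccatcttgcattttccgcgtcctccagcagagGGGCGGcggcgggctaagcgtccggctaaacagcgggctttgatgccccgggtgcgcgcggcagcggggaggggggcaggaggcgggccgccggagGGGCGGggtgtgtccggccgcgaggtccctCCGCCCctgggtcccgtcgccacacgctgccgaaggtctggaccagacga
Both strands of the 5 windows were also searched for the ONECUT core letters ATTGAT, which 7.54% of all 32851 RefSeq windows of this length held. A second ONECUT core, spelled ATCGAT, was held by 0.925% of all windows. Neither core was in any of the 5 windows. The TATA box letters were in 2 of the 5 windows (Abca4 and Iqcn), against 13.6% of all windows, and the GC box letters in 3 (Timp3, Aif1l and Cav2), against 35.7%. Relative to the start site, the TATA box letters lay at -119 in Abca4 and, in reverse orientation, at 41 in Iqcn. A match of letters is a description of the window and no sign that a factor binds there.

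The effect of RANKL was the first question, since it was measured in other libraries than those whose difference picked the genes. The falls were picked as high in RANKL II, which has the same treatment labels as RANKL. The p-values of Timp3 and Khdc1a do not allow for that choice. Timp3 and Khdc1a rose in RANKL organoids relative to ENR control organoids, and Aif1l and Abca4 were higher in every RANKL library than in any ENR control library. With the default filter on low counts, these 4 of the 7 entered the test. Among all 13570 genes tested by edgeR's quasi-likelihood test, 56.7% were called at an adjusted p under 0.05, with 28.7% higher and 28.0% lower. With GC offsets the calls split into 3017 higher and 4575 lower genes, against 3897 and 3802 without them. Abca4 and Aif1l passed the filter on low counts through their RANKL libraries alone, with no ENR control library above the cutoff of 1.44 CPM, so a difference between groups was built into their being tested, and they are given by their counts with no p. Where groups are said not to overlap in this comparison, no share over all genes is given beside it. In bulk RNA, fewer cells of a type and less RNA per cell cannot be told apart.

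Aif1l (chr2:31950139-31973442, plus strand, 9 exonic blocks) had 86, 111 and 134 counts in the RANKL libraries, or 9.65, 12.5 and 18.1 CPM, against 3, 5 and 2 counts in the ENR control libraries, or 0.576, 0.666 and 0.457 CPM. Every RANKL library lay above every ENR control library, as passing the filter through the RANKL libraries alone required. The RANKL libraries differed from each other by almost a factor of 2. The depth-scaled count ratio was 22.5 with an exact 95% interval of 12.1 to 47.4 that covers counting error only.

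Timp3 (chr10:86300372-86349506, plus strand, 8 exonic blocks) had 10.7, 14.7 and 18.6 CPM in the RANKL libraries, against 1.15, 1.60 and 2.28 CPM in the ENR control libraries. The groups did not overlap. The log2 fold change was 3.13 (SE 0.288, edgeR adjusted p = 1.95e-07).

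Abca4 (chr3:122044443-122180123, plus strand, 56 exonic blocks) had 29, 48 and 58 counts in the RANKL libraries, against 2, 1 and 2 in the ENR control libraries. At 5 counts over the whole ENR control group the size of the change is poorly fixed, and the depth-scaled count ratio was 18.4 with an exact 95% interval of 7.67 to 57.4 of the same kind. The RANKL and ENR control libraries did not overlap, as passing the filter through the RANKL libraries alone required.

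Khdc1a (chr1:21349641-21352200, plus strand, 3 exonic blocks) had the smallest log2 fold change of the 4. It had 5.16, 6.10 and 6.09 CPM in the RANKL libraries, against 2.11, 2.80 and 3.20 CPM in the ENR control libraries, with no overlap. The log2 fold change was 1.10 (SE 0.238, edgeR adjusted p = 0.000972).

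Cav2 (chr6:17281185-17289115, plus strand, 3 exonic blocks) stayed below the default filter, with 10, 17 and 11 counts in the RANKL libraries against 2, 2 and 2 in the ENR control libraries. The groups did not overlap, and the count ratio was 4.30 (exact 95% interval 1.81 to 12.5, counting error only). Under 7 of 16 alternatives, among them DESeq2 and both other filters, Cav2 was tested, at log2 fold changes of 1.81 to 2.23. With no more than 2 counts in any ENR control library, none of these was above the cutoff of 1.44 CPM. Those values are therefore given with no p. Nav3 (chr10:109681259-110456204, minus strand, 43 exonic blocks) had 3, 4 and 3 counts in the RANKL libraries against 0, 1 and 1 in the ENR control libraries, and its count ratio of 3.40 had an exact 95% interval from 0.724 to 31.9. Iqcn (chr8:70703457-70717650, plus strand, 4 exonic blocks) was close to absent, with 0, 2 and 2 counts in the RANKL libraries against 0, 1 and 2 in the ENR control libraries. A change in Nav3 or Iqcn between RANKL and ENR control was not detectable at this depth.

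The M cell markers, including the transcription factor Spib and the surface protein Gp2, moved with the RANKL comparison as a set. Their summed level was 1182 to 1292 CPM in RANKL libraries and 122 to 132 CPM in ENR control libraries, with 10 of 10 higher and 2 at 0 in ENR control. Onecut2 averaged 450 ± 17.8 CPM in RANKL and 197 ± 8.89 CPM in ENR control (SD, n = 3 each). The log2 fold change of Onecut2 was 1.19 (SE 0.0783, edgeR adjusted p = 3.93e-09), or 0.88 with GC offsets. Stem cell markers summed to 850 to 1180 CPM in RANKL and 2480 to 2824 CPM in ENR control, with 5 of 7 lower and 1 higher. Paneth cell markers had 7 of 8 lower and 1 higher, at 379 to 395 CPM in RANKL and 537 to 915 CPM in ENR control, and 2 of 3 tested immune cell markers were higher. The part of any of these in the levels of Aif1l, Timp3, Abca4 and Khdc1a was not tested.

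**Figure D1:**
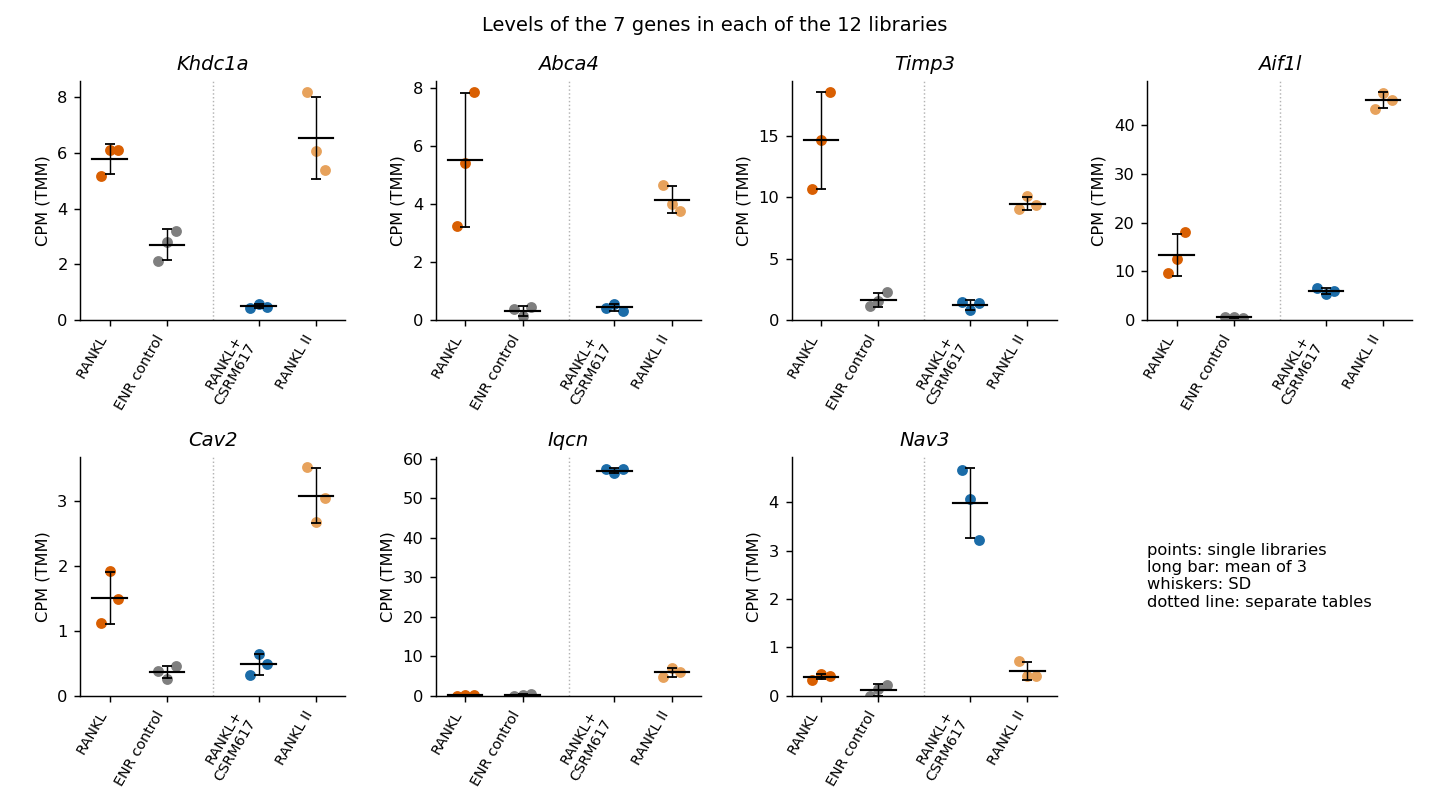
Each panel plots the level of 1 gene in CPM after TMM scaling (vertical axis, from 0) in the 3 libraries of RANKL, ENR control, RANKL+CSRM617 and RANKL II, with points for libraries, a bar for the mean and whiskers for the SD. The dotted line parts 2 tables that were normalized separately. Timp3 and Abca4 are high in both RANKL groups and low in ENR control and RANKL+CSRM617, while Iqcn is high in RANKL+CSRM617 alone, at 56.3 to 57.4 CPM. Aif1l, at a mean of 5.95 CPM in RANKL+CSRM617, lies between its means of 0.566 CPM in ENR control and 13.4 CPM in RANKL.

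The values of RANKL+CSRM617 against RANKL II chose the 7 genes, so they are given here as sizes and levels. All 7 passed the filter on low counts in this table, Khdc1a, Abca4 and Cav2 through their RANKL II libraries alone and Nav3 through its RANKL+CSRM617 libraries alone (cutoff 0.932 CPM). The share of all 14167 genes called by the same edgeR test in this comparison was 71.4%, with 35.2% higher and 36.2% lower, and nothing about the 7 is read from it. None of the 7 had overlapping groups. For Khdc1a, Abca4, Cav2 and Nav3, passing the filter through 1 group alone made that certain. For Timp3, Aif1l and Iqcn, their choice by this same difference made it likely. The share over all genes was not counted.

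Aif1l was the most abundant of the 5 falls. It had 61, 66 and 73 counts in the RANKL+CSRM617 libraries, or 6.60, 5.38 and 5.89 CPM, against 419, 453 and 565 counts in the RANKL II libraries, or 43.4, 46.7 and 45.2 CPM. The libraries of each group lay close together, and the log2 fold change was -2.93. On the authors' deposited log2 scale, which compresses low counts, the Aif1l difference of -2.22 was the lowest of 14162 genes.

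Timp3 had 1.51, 0.814 and 1.37 CPM in the RANKL+CSRM617 libraries, against 9.01, 10.1 and 9.37 CPM in the RANKL II libraries, a log2 fold change of -2.96. Abca4 had 4, 7 and 4 counts in the RANKL+CSRM617 libraries, against 45, 39 and 47 in the RANKL II libraries, a log2 fold change of -3.19. Both genes were low in all 3 RANKL+CSRM617 libraries and steady in all 3 RANKL II libraries.

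Khdc1a had the lowest log2 fold change of the 7, at -3.66. It had 0.433, 0.570 and 0.484 CPM in the RANKL+CSRM617 libraries (4, 7 and 6 counts), against 8.19, 6.08 and 5.37 CPM in the RANKL II libraries (79, 59 and 67 counts). Cav2 had 3, 8 and 6 counts in the RANKL+CSRM617 libraries, against 34, 26 and 38 in the RANKL II libraries, a log2 fold change of -2.59. For both, the RANKL+CSRM617 values rest on single-digit counts.

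Iqcn had the most counts of the 7. It had 530, 691 and 711 counts in the RANKL+CSRM617 libraries, or 57.3, 56.3 and 57.4 CPM, against 46, 68 and 75 counts in the RANKL II libraries, or 4.77, 7.01 and 6.01 CPM. The RANKL+CSRM617 libraries lay close together and the RANKL II libraries were more spread. The log2 fold change was 3.26, and on the authors' deposited log2 scale the difference of 2.54 was the highest of 14162 genes. Nav3 was far lower, with 4.65, 4.07 and 3.23 CPM in the RANKL+CSRM617 libraries (43, 50 and 40 counts), against 0.725, 0.412 and 0.400 CPM in the RANKL II libraries (7, 4 and 5 counts), a log2 fold change of 2.94.

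Divided by exon length, the levels placed Iqcn at 12.4 CPM per kb in RANKL+CSRM617, against 1.29 CPM per kb in RANKL II. Aif1l was at 1.48 CPM per kb in RANKL+CSRM617, against 11.2 CPM per kb in RANKL II. The other 5 genes were at most at 0.262 CPM per kb in RANKL+CSRM617 (Nav3) and at most at 3.29 CPM per kb in RANKL II (Khdc1a). So per length, Iqcn was the most abundant of the 7 in RANKL+CSRM617 and Aif1l the most abundant in RANKL II.

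Among all 14167 genes tested, the 5 falls ranked 3 (Khdc1a), 7 (Abca4), 11 (Timp3), 14 (Aif1l) and 34 (Cav2) from the lowest log2 fold change, and Iqcn and Nav3 ranked 7 and 11 from the highest. The 7 were thus a selection from the extremes and not the whole of them. Among genes whose average log2 CPM was 1 or more, those next beyond Cav2 were Gabrp, a GABA-A receptor subunit, at -2.57 and Gm27539 at -2.54. Those next beyond Nav3 were Egr2, a zinc finger transcription factor, at 2.92 and Gm10680 at 2.85.

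**Figure D2:**
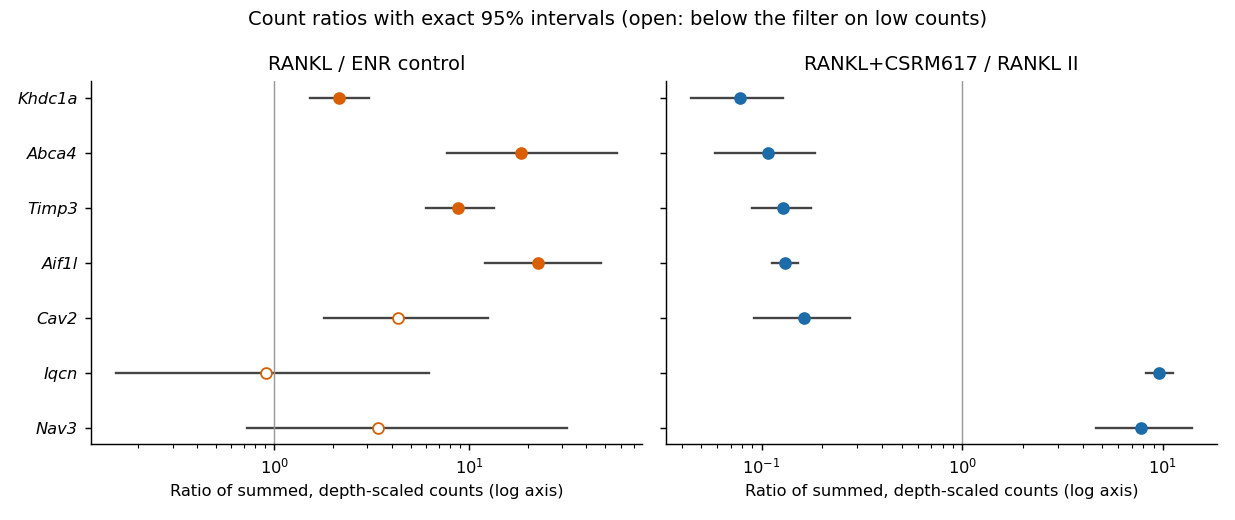
Points give the ratio of summed, depth-scaled counts of each gene on a log axis, RANKL over ENR control on the left and RANKL+CSRM617 over RANKL II on the right, with exact 95% intervals that cover counting error only. Open points mark genes below the filter on low counts. The ratios of Abca4 (18.4) and Aif1l (22.5) are the highest on the left, and the intervals of Iqcn and Nav3 there include 1.

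Transcript GC content moved with the CSRM617 comparison across the genome, and less strongly and in the other direction with the RANKL comparison. In RANKL against ENR control, Spearman's correlation between the log2 fold change and GC content was -0.316 over 13383 genes. The medians there were 0.52 for 1018 genes under 40% GC and -0.41 for 504 genes over 60% GC. The values that follow are for RANKL+CSRM617 against RANKL II. Over 13964 genes with a known GC content, Spearman's correlation between the log2 fold change and GC content was 0.586, a correlation across genes, which are not independent replicates. The median log2 fold change was -0.90 for 1068 genes under 40% GC and 0.59 for 508 genes over 60% GC. Cav2, at 37.5% GC, had a log2 fold change of -2.59, which became -1.69 when smooth GC offsets were fitted per library. The other 6 genes had values of -3.25 (Khdc1a), -3.38 (Abca4), -2.86 (Timp3), -3.11 (Aif1l), 2.84 (Iqcn) and 2.96 (Nav3) with the offsets. In the RANKL comparison the offsets moved Khdc1a to 0.81 (edgeR adjusted p = 0.00747).

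M cell markers summed to 1248 to 1281 CPM in RANKL+CSRM617 and 1297 to 1313 CPM in RANKL II, with 4 of 10 higher and 5 lower. Enterocyte markers, which mark the absorptive cells, summed to 11052 to 11253 CPM in RANKL+CSRM617 and 4949 to 5013 CPM in RANKL II, with 10 of 10 higher. Paneth cell markers summed to 883 to 907 CPM in RANKL+CSRM617 and 563 to 578 CPM in RANKL II, with 6 of 8 higher and 1 lower, and enteroendocrine markers to 42.3 to 51.5 CPM in RANKL+CSRM617 and 19.0 to 20.2 CPM in RANKL II, with 2 of 3 tested higher. Onecut2 itself averaged 397 ± 19.4 CPM in RANKL+CSRM617 and 546 ± 4.83 CPM in RANKL II (SD, n = 3 each), a log2 fold change of -0.46 (SE 0.0295, edgeR adjusted p = 4.82e-18) that became -0.03 with GC offsets. The part of these shifts in the 7 genes was not tested.

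**Figure D3:**
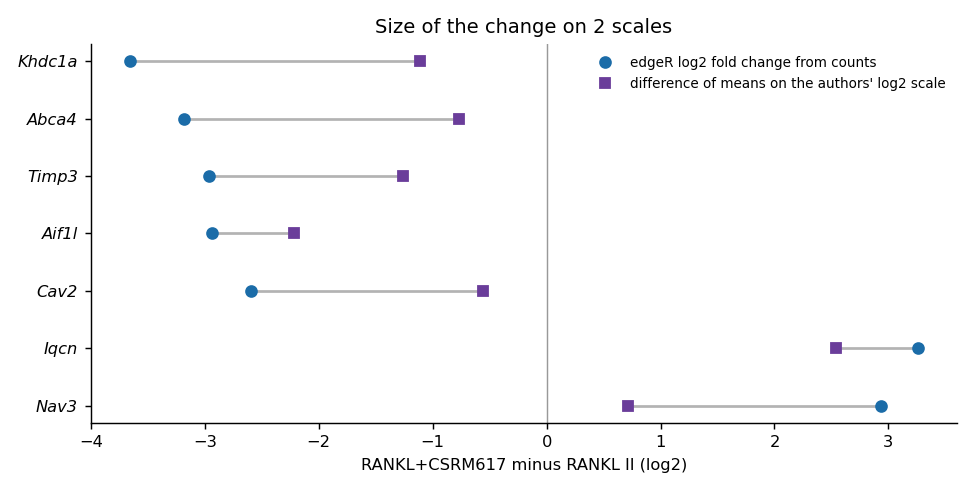
For each gene the circle is the edgeR log2 fold change from counts and the square the difference of group means on the authors' deposited log2 scale, both RANKL+CSRM617 minus RANKL II (horizontal axis, log2). Aif1l (-2.93 and -2.22) and Iqcn (3.26 and 2.54) keep most of their size on both scales, whereas Abca4 (-3.19 and -0.77) and Cav2 (-2.59 and -0.56) do not.

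The size of a fold depended on the scale most for genes with few counts. On the authors' deposited log2 scale the differences were -1.11 for Khdc1a, -0.77 for Abca4, -1.26 for Timp3, -0.56 for Cav2 and 0.72 for Nav3. These ranked 128, 579, 61 and 1307 from the lowest for the 4 falls and 675 from the highest for Nav3, of 14162 genes. In the RANKL comparison the same scale gave 1.90 for Aif1l, 1.67 for Timp3, 1.12 for Abca4 and 0.53 for Khdc1a, all positive.

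RANKL and RANKL II carry the same treatment labels, so the levels of the 7 genes can be set side by side across the tables, although the tables were normalized separately and no test was made. Iqcn averaged 5.93 CPM in RANKL II and 0.166 CPM in RANKL, a ratio of 35.8, with 189 counts in RANKL II and 4 in RANKL. Aif1l averaged 45.1 CPM in RANKL II and 13.4 CPM in RANKL, a ratio of 3.35. For Khdc1a, Abca4, Timp3, Cav2 and Nav3 the ratio of RANKL II to RANKL lay between 0.649 (Timp3) and 2.04 (Cav2). The level of Iqcn in organoids with the same label thus differed by more between the tables than between RANKL+CSRM617 and RANKL II, whose count ratio was 9.60, although the RANKL level rests on 4 counts.

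Set beside ENR control in the same way, RANKL+CSRM617 organoids had Abca4 at 0.442 CPM against 0.325 CPM in ENR control, Timp3 at 1.23 against 1.68 CPM and Cav2 at 0.487 against 0.369 CPM. These 3 thus stood near their ENR control level in tables that were normalized separately. Abca4 and Cav2 rest on 5 and 6 counts in ENR control, and on 15 and 17 in RANKL+CSRM617. Khdc1a, at 0.496 CPM in RANKL+CSRM617, stood below its 2.70 CPM in ENR control, and Aif1l, at 5.95 CPM, above its 0.566 CPM. Iqcn, at 57.0 CPM in RANKL+CSRM617 against 0.197 CPM in ENR control, stood farthest from its ENR control level. Nav3 was at 3.98 CPM in RANKL+CSRM617 against 0.121 CPM in ENR control. The ENR control levels of Iqcn and Nav3 rest on 3 and 2 counts.

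The genes followed each other to different degrees. Over the 12 libraries, with the mean of each table subtracted from log2(CPM + 1), Pearson's r was 0.991 between Timp3 and Aif1l, 0.986 between Abca4 and Aif1l and 0.980 between Abca4 and Timp3. It was 0.967 between Khdc1a and Cav2 and 0.952 between Iqcn and Nav3, and 0.849 between Khdc1a and Abca4. These describe 12 libraries that form 4 groups, and much of each value is the step between groups. The step between RANKL+CSRM617 and RANKL II chose the genes, so high r among the falls and between the rises was partly built in. Iqcn and Nav3 had few counts in RANKL and ENR control, so their r rests mostly on that step.

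Of 12345 other genes searched, the pattern most like that of Abca4 was that of Rdh10, a retinol dehydrogenase that makes retinal, with r of 0.994. Rdh10 averaged 149 CPM in RANKL and 69.0 CPM in ENR control, and 80.3 CPM in RANKL+CSRM617 and 160 CPM in RANKL II. Next came Gabrp at 0.989, which had no count in ENR control and averaged 6.71 CPM in RANKL, 1.60 CPM in RANKL+CSRM617 and 9.66 CPM in RANKL II. Wsb1 (r of 0.996) and Aif1l came first for Timp3, Tm4sf4 and Vwa5a (both 0.994) for Aif1l, and Ankra2 (0.988) and Zkscan8 (0.987) for Khdc1a. Between 145 and 353 genes reached r of at least 0.95 with these 4 genes.

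Cav2, Iqcn and Nav3 passed the filter in 1 table, so likeness to them was measured over 6 libraries. Gm37677 and Slc25a16 came first for Cav2, Chd2 and Khk for Iqcn, and C130074G19Rik for Nav3, all with r above 0.99. At least 2235 genes reached r of 0.95 with each of the 3, so over 6 libraries this order says little beyond the step between RANKL+CSRM617 and RANKL II.

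The relatives and partners of the 7 genes were looked up in 8 lists that leave the 7 out and hold 115 genes in all. In RANKL against ENR control 62 were tested and 42 called (67.7%, against 56.7% of all genes), 27 higher and 15 lower, with a median log2 fold change of 0.18 (0.00 over all genes). In RANKL+CSRM617 against RANKL II 64 were tested and 52 called (81.3%, against 71.4% of all genes), 35 higher and 17 lower, with a median of 0.21 (-0.02 over all genes).

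Of the other tissue inhibitors of metalloproteinases, Timp2 was higher in RANKL and lower with CSRM617, and Timp4 was lower with CSRM617. Timp2 averaged 12.2 ± 0.0868 CPM in RANKL and 4.32 ± 1.29 CPM in ENR control, a log2 fold change of 1.44 (SE 0.197, edgeR adjusted p = 1.46e-05), and 1.77 ± 0.173 CPM in RANKL+CSRM617 and 6.17 ± 0.145 CPM in RANKL II (SD, n = 3), a log2 fold change of -1.79 (SE 0.195, edgeR adjusted p = 4.33e-11). Timp4 had 24 counts in RANKL and none in ENR control, at least 5.44-fold higher when the empty group is set to 3 counts in all, and it was not tested. With CSRM617 it averaged 1.92 ± 0.309 CPM, against 5.37 ± 0.643 CPM in RANKL II, a log2 fold change of -1.52 (SE 0.203, edgeR adjusted p = 8.33e-09). Timp1 was near absent, with 0 to 9 counts per group.

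Of the inhibitors and their metalloproteinase targets together, 6 of 8 tested genes rose and 1 fell in RANKL against ENR control (median log2 fold change 0.72), and 3 of 9 rose and 4 fell in RANKL+CSRM617 against RANKL II (median 0.00). With GC offsets the second count was 4 higher and 5 lower (median -0.19), and Mmp15, called higher at 0.08, was called lower at -0.40 (edgeR adjusted p = 4.52e-40). Mmp7, the Paneth cell metalloproteinase matrilysin, rose in RANKL to 251 CPM, against 57.2 CPM in ENR control, and fell in RANKL+CSRM617 to 190 CPM, against 362 CPM in RANKL II (edgeR adjusted p = 1.88e-08 and 1.77e-28), each time against the direction in which most of the Paneth cell markers went. Adam10, a sheddase, rose by 0.72 and fell by 0.67 on the log2 scale (edgeR adjusted p = 7.21e-06 and 2.55e-11), and with GC offsets the same log2 fold changes were 0.39 and -0.19. Adam17, a sheddase that TIMP3 inhibits, had log2 fold changes of 0.11 and 0.01 and passed neither test, but was at 0.24 with CSRM617 under GC offsets (edgeR adjusted p = 4.63e-05).

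Around Abca4, the retinol receptor Stra6 had 1328 counts in RANKL and 3 in ENR control, a depth-scaled count ratio of 301 (exact 95% interval 103 to 1461, counting error only). It averaged 15.02 ± 0.122 CPM in RANKL+CSRM617 and 61.1 ± 3.29 CPM in RANKL II, a log2 fold change of -2.02 (SE 0.0701, edgeR adjusted p = 1.06e-27). Stra6 was the only 1 of 4 tested visual cycle genes called in RANKL against ENR control, and 0 of 4 rose and 3 fell in RANKL+CSRM617 against RANKL II, or 2 with GC offsets. The photoreceptor markers Pde6b, Rcvrn, Crx and Prph2 were at 0 in all libraries, the 10 of that list summing to 2.24 to 5.18 CPM over the RANKL and ENR control libraries and 2.69 to 4.54 CPM over the RANKL+CSRM617 and RANKL II libraries. Of the 2 photoreceptor markers tested in RANKL against ENR control, Gnat2 was called lower.

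The other ABCA transporters did not share 1 direction. In RANKL against ENR control 3 of 5 rose and none fell, and in RANKL+CSRM617 against RANKL II 3 of 6 rose and 2 fell. Abca13 had 205 counts in RANKL and none in ENR control, at least 46.4-fold higher by the same floor. With CSRM617 its log2 fold change was -0.61 (edgeR adjusted p = 9.05e-06), or -0.31 with GC offsets. Abca5 fell by 1.46 on the log2 scale with CSRM617 (edgeR adjusted p = 2.41e-09), or by 0.78 with GC offsets. Abca7 rose by 1.51 (edgeR adjusted p = 1.59e-26), or by 1.05 with GC offsets.

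The closest relative of Aif1l went another way with CSRM617. Aif1, known as the macrophage marker IBA1, had 53 counts in RANKL and 3 in ENR control, a depth-scaled count ratio of 12 (exact 95% interval 3.89 to 60.1, counting error only). It averaged 3.15 ± 0.502 CPM in RANKL+CSRM617 and 1.23 ± 0.41 CPM in RANKL II, a log2 fold change of 1.36 (SE 0.262, edgeR adjusted p = 1.25e-05). Immune cell markers, of which Aif1 is one, summed to 98.2 to 110 CPM in RANKL+CSRM617 and 60.2 to 68.1 CPM in RANKL II, with Adgre1 among those at 0. The sum was 44.7 to 51.0 CPM in RANKL and 6.13 to 7.31 CPM in ENR control, and the part of immune cells in the Aif1 level was not tested. Among actin binders, 7 of 11 tested genes rose and 3 fell in RANKL against ENR control, and 9 of 11 rose and 2 fell in RANKL+CSRM617 against RANKL II. With GC offsets the second count was 9 higher and 1 lower, with Pls1 going from -0.14 to 0.28 (edgeR adjusted p = 3.54e-22) and Ezr no longer called (edgeR adjusted p = 0.0586). Pls3, the bundling protein plastin 3, rose by 0.74 and fell by 1.19 on the log2 scale (edgeR adjusted p = 1.26e-05 and 1.92e-19). With GC offsets the log2 fold changes of Pls3 were 0.49 and -0.85.

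The other caveolins were near absent, whereas RNA of some other caveolar proteins was present. CAV1, with which CAV2 forms complexes, is encoded by the gene 17220 bp from Cav2, and Cav1 had 0 counts in RANKL and 1 in ENR control, and 0 counts in RANKL+CSRM617 and 9 in RANKL II. Cav3, Cavin2 and Cavin4 were at 0 in all 12 libraries. Cavin3 had 7 counts in RANKL and 11 in ENR control. It had 5 counts in RANKL+CSRM617 and 14 in RANKL II, and was not tested. Cavin1, a caveolar coat protein gene, averaged 9.31 CPM in RANKL and 10.9 CPM in ENR control, and 5.98 CPM in RANKL+CSRM617 and 5.14 CPM in RANKL II, and passed neither test. Ehd2, an ATPase at the neck of caveolae, averaged 10.6 ± 4.98 CPM in RANKL and 3.40 ± 0.973 CPM in ENR control (log2 fold change 1.67, SE 0.365, edgeR adjusted p = 0.00162). With CSRM617 it averaged 3.89 ± 0.181 CPM, against 9.499 ± 0.465 CPM in RANKL II (log2 fold change -1.28, SE 0.145, edgeR adjusted p = 1.47e-10). Of 4 tested caveolar genes Ehd2 was the only 1 called in RANKL against ENR control, and 1 rose (Pacsin2) and 1 fell (Ehd2) in RANKL+CSRM617 against RANKL II. With GC offsets Pacsin2 and Pacsin3 were also called higher in RANKL (edgeR adjusted p = 0.0358 and 0.0499), and Pacsin3 was called lower with CSRM617 at -0.64 (edgeR adjusted p = 2.42e-10).

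The KHDC1 family was silent apart from Khdc1a. Khdc1b had no count in any library, and Khdc1c had 2 counts in RANKL, 1 in ENR control and none in the other groups. A pseudogene 1805 bp from Khdc1a, Gm16329, had 2 counts in RANKL+CSRM617 and 13 in RANKL II. Khdc1a belongs to a cluster of similar genes and pseudogenes, and the handling of reads shared between copies was not stated, so its counts are uncertain to that extent. Of the 10 oocyte and early embryo markers, summed levels stayed between 0.207 and 1.33 CPM in every library.

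The navigators Nav1 and Nav2 rose with CSRM617, with log2 fold changes smaller than that of Nav3. Nav1 averaged 98.9 ± 4.09 CPM in RANKL+CSRM617 and 65.6 ± 2.91 CPM in RANKL II (log2 fold change 0.60, edgeR adjusted p = 5.46e-15), and Nav2 averaged 412 ± 5.68 CPM and 287 ± 3.34 CPM in the same groups (log2 fold change 0.52, edgeR adjusted p = 2.34e-20, or 0.19 with GC offsets). In RANKL against ENR control Nav1 fell by 0.61 on the log2 scale (edgeR adjusted p = 0.000126) and Nav2 was not called at 0.16, but was at 0.22 with GC offsets (edgeR adjusted p = 0.0179). Among navigators and microtubule plus-end proteins, 11 of 15 tested genes rose and 3 fell with CSRM617, led by the cytoskeletal linker Dst at 1.26 and Clip2 at 1.08 (0.58 with GC offsets), and 7 rose and 6 fell in RANKL against ENR control. With GC offsets these counts were 11 and 0 with CSRM617, and 5 and 6 in RANKL against ENR control.

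Of the IQ-motif proteins and calmodulins listed for Iqcn, 7 of 12 tested genes rose and 2 fell in RANKL+CSRM617 against RANKL II, and 1 rose and 3 fell in RANKL against ENR control. With GC offsets these counts were 5 and 2, and 1 and 6. The scaffold Iqgap2 rose with CSRM617 to 122 ± 2.83 CPM, against 42.6 ± 1.78 CPM in RANKL II (log2 fold change 1.51, edgeR adjusted p = 6.07e-29). Of the 10 spermatid markers, Tnp1, Tnp2, Acrv1 and Akap4 were among those at 0 in RANKL+CSRM617 and RANKL II. The 10 summed to 6.17 to 7.09 CPM in RANKL+CSRM617 and 5.46 to 6.25 CPM in RANKL II. They summed to at least 9.61 CPM in every RANKL library and at most 0.96 CPM in every ENR control library. The 1 spermatid marker tested there had a log2 fold change of 4.10. It was below the cutoff of 1.44 CPM in every ENR control library, so a difference was built into its being tested.

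**Figure D4:**
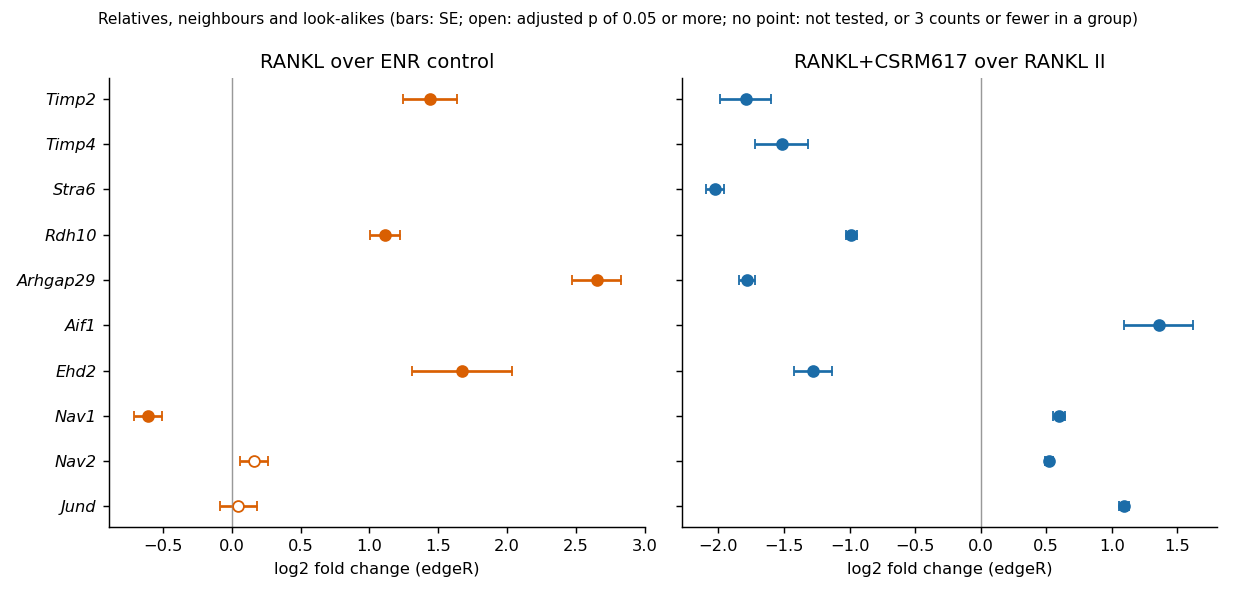
Points give edgeR log2 fold changes with SE bars for relatives (Timp2, Timp4, Stra6, Aif1, Ehd2, Nav1, Nav2), neighbours (Arhgap29, Jund) and a gene of like pattern (Rdh10), RANKL over ENR control on the left and RANKL+CSRM617 over RANKL II on the right. Open points did not pass the test, and a missing point was not tested or had 3 counts or fewer in a group. These 10 were chosen for display after their values were seen. Timp2, Rdh10, Arhgap29 and Ehd2 are above 0 on the left and below 0 on the right.

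Genes next to the 7 were looked at last. Arhgap29, which encodes a GTPase-activating protein and lies 27690 bp from Abca4 on the same strand, averaged 83.7 CPM in RANKL and 13.0 CPM in ENR control (log2 fold change 2.65, SE 0.176, edgeR adjusted p = 1.88e-08). In the other table it averaged 24.7 CPM in RANKL+CSRM617 and 85.9 CPM in RANKL II (log2 fold change -1.78, SE 0.0625, edgeR adjusted p = 1.56e-27). With GC offsets the log2 fold changes of Arhgap29 were 2.35 and -1.36. Gclm, the nearest coding gene on the other side of Abca4, passed neither test, at -0.19 (edgeR adjusted p = 0.275) and -0.13 (edgeR adjusted p = 0.104). With GC offsets Gclm was called at -0.51 and 0.35 (edgeR adjusted p = 0.00242 and 4.3e-06), against the direction of Abca4 both times.

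Jund, which encodes an AP-1 transcription factor and lies 2841 bp from Iqcn on the same strand, averaged 204 CPM in RANKL+CSRM617 and 95.8 CPM in RANKL II (log2 fold change 1.09, SE 0.0381, edgeR adjusted p = 1.55e-27). With GC offsets the log2 fold change of Jund was 0.35. It was 131 CPM in RANKL and 128 CPM in ENR control, where Iqcn was close to absent (log2 fold change 0.05, edgeR adjusted p = 0.782, and 0.72 with GC offsets). Gm3336, 893 bp on the other side, had a log2 fold change of 0.38 with CSRM617 (edgeR adjusted p = 0.00174), and 0.16 with GC offsets (edgeR adjusted p = 0.168).

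Nup214, 994 bp from Aif1l, rose by 0.40 on the log2 scale with CSRM617 (edgeR adjusted p = 2.12e-10), or by 0.14 with GC offsets, while Aif1l was lower. Syn3 overlaps Timp3 on the opposite strand and averaged 9.51 CPM in RANKL+CSRM617 and 10.8 CPM in RANKL II (log2 fold change -0.19, edgeR adjusted p = 0.15), and 13.7 CPM in RANKL and 21.7 CPM in ENR control (log2 fold change -0.65, edgeR adjusted p = 0.000882). Whether the counting kept strands apart was not stated, so Syn3 reads may stand in the Timp3 counts and the other way round. E2f7, 289235 bp from Nav3 and the nearest coding gene on that side, rose by 1.23 with CSRM617 and fell by 1.05 in RANKL against ENR control (edgeR adjusted p = 1.28e-08 and 3.42e-05).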

How the data were processed

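RNA of 12 organoid libraries was read as 42-bp pairs after ribosomal RNA depletion, per the labels' protocols. The authors deposited 2 tables of raw counts per gene symbol. Per the submitters' processing notes, STAR, HTSeq 0.13.5 and DESeq2 1.34.0 were the tools and mm10 (GRCm38) the build. Not given in the sources used here were the STAR version, the annotation, the strand setting and how reads shared by similar genes were handled. The values in the 2 normalized tables that the authors deposited proved to be log2 values of an unstated transformation. Each table was tested on its own 6 libraries, and every column was used.

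Counts were tested with edgeR 4.0.16 in R 4.3.3 (quasi-likelihood, robust, TMM factors, filterByExpr defaults, no covariate, Benjamini-Hochberg adjustment over all genes tested, two-sided, threshold 0.05). SE is the absolute unshrunken log2 fold change divided by the root of F. CPM are TMM-scaled, as mean ± SD over 3 libraries. Count ratios carry exact 95% binomial intervals, which cover counting error only. Against a group at 0, folds are lower bounds with a floor of 3 counts over the group. The procedure was tested on simulated data. Of the symbols, 53543 matched a GENCODE annotation of GRCm38, which gave coordinates, exonic blocks, lengths and GC content.

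The 7 genes, the 8 lists of relatives and the marker lists were chosen with earlier results of these data known. Named genes were the 7, the direct relatives and up to 4 genes of smallest p per list, the 2 genes of most like pattern per gene (log2(CPM + 1), centred per table), nearest and overlapping genes, the 2 genes next beyond the least changed member in each direction, and Onecut2. A gene that this rule named is not reported here. Alternatives were upper-quartile and RLE factors, DESeq2 1.42.0, a stricter filter and no filter (the stricter one asking for 10 counts in each library of a group), limma 3.58.1 on the deposited log2 tables, a replicate block, GC offsets (spline with 5 degrees of freedom) with and without the block, leaving out the 2 ribosomal RNA loci, and leaving out each library.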

Additional observations from a re-analysis of the deposited data

How the results depend on the processing

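In RANKL against ENR control, Khdc1a and Timp3 stayed higher and past the threshold under all 16 alternatives, with the largest edgeR, DESeq2 or limma adjusted p at 0.00963 for Khdc1a and 5.24e-06 for Timp3. Abca4 and Aif1l were called in all 16 as well, but entered the test through their RANKL libraries alone, so those calls add nothing. The number of the 7 genes called was 4, and 5 under the 7 alternatives that tested Cav2, where 56.7% of all 13570 genes were called in the main test. Cav2 too had no ENR control library above the cutoff, so nothing about the 7 is read from these counts. Leaving out 1 library, the log2 fold changes ranged over 0.96 to 1.19 (Khdc1a) and 2.93 to 3.34 (Timp3). With GC offsets 3017 genes were called higher and 4575 lower in RANKL against ENR control, against 3897 and 3802 without them, and the median of all genes moved to -0.10. Replicate numbers are shared between groups, but the labels do not say that a number marks a shared experiment, and same-numbered libraries correlated at 0.0281, 0.157 and 0.0519 in the first comparison and 0.0213, 0.0285 and 0.0575 in the second. With a replicate block 7701 genes were called in RANKL against ENR control, against 7699 without it, and 10095 in RANKL+CSRM617 against RANKL II, against 10114. Depth limits Iqcn and Nav3 in RANKL against ENR control, where each had 10 counts or fewer per group, and the default filter keeps out Cav2, with 38 and 6 counts.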
